A study of Homo sapiens with 19 samples.

Results

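The aryl hydrocarbon receptor axis was followed through 6 genes, AHR, ARNT, AHRR, TIPARP, CYP1A1 and CYP1B1, in 19 RNA-seq libraries of A549 cells, a human line from a lung adenocarcinoma. The genes were taken by symbol from the 62700 genes of the count tables, and all 6 were found. They were picked with the 2 h values of these libraries known, so the 2 h values, and every comparison of 2 h with another time, are given as a description with no test. The samples surround nanostraw electroporation (NEE), in which hollow nanoscale straws and short electric pulses open the cell membrane and let RNA out of living cells. One arm of the study held 3 technical replicates of NEE-sampled RNA from A549 monolayers. The other arm held 16 lysates, of spheroids and of monolayers before NEE, right after it, 2 h after it and 24 h after it, with 2 biological replicates in each of the 8 groups. All groups share the 1 cell line and carry no genetic change or added agent in the labels. No labelled group was kept for the same time without NEE, so handling and time in culture cannot be told apart from NEE. Lysate RNA and NEE-sampled RNA were purified with different kits, so purification and the way of sampling cannot be told apart either.

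AHR is a ligand-activated transcription factor of the bHLH-PAS family that waits in the cytosol in a complex with HSP90 chaperones. Polycyclic hydrocarbons, dioxins and tryptophan derivatives bind it, and the receptor then enters the nucleus, pairs with ARNT and binds xenobiotic response elements in DNA. CYP1A1 and CYP1B1, which encode cytochrome P450 enzymes that oxidise polycyclic hydrocarbons, are its classical targets and are inducible in lung epithelium. TIPARP (also PARP7), a mono-ADP-ribosyltransferase, and AHRR, a repressor that competes for ARNT, are targets that feed back on the receptor.

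Total gene counts were 13626934 to 18512985 per NEE-sampled library and 16031034 to 24571083 per lysate. Levels are CPM, counts scaled to library size, with TMM factors that correct for differences in library makeup. Reads were amplified without molecular identifiers, so counting limits cover counting error only. The 7 epithelial markers summed to 24160 to 29640 CPM in NEE-sampled RNA and to 14300 to 28000 CPM in 15 of the lysates. These sums split by replicate number, at 7216 to 17200 CPM in replicate 1 lysates and 20700 to 28000 CPM in replicate 2 lysates. Replicate 1 of the monolayers before NEE stood apart, with 7216 CPM for that list. In this library the 8 NK and T cell markers summed to 486 CPM, against 12.9 to 44.9 CPM in the other lysates and 0.271 to 2.51 CPM in NEE-sampled RNA. The members' differences from the monolayers before NEE, and those of the pathway genes that it moved, are therefore also given without it.

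The promoters of CYP1A1 and TIPARP are printed because these target genes were among the 3 members that stood highest in all 2 h lysates. Each run is the 250 bases before a RefSeq transcript start on GRCh38.p14, on the strand of the gene, and capitals mark the core of the xenobiotic response element, GCGTG, or CACGC where the core lies on the opposite strand. The CYP1A1 window is chr15:74725529-74725778 on the minus strand and the TIPARP window, of the first of its 3 listed starts, is chr3:156674340-156674589 on the plus strand.
CYP1A1: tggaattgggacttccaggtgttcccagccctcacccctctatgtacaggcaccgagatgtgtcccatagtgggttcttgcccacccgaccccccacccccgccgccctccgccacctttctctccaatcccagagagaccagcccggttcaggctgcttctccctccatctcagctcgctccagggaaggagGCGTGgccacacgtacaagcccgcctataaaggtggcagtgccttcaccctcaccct
TIPARP: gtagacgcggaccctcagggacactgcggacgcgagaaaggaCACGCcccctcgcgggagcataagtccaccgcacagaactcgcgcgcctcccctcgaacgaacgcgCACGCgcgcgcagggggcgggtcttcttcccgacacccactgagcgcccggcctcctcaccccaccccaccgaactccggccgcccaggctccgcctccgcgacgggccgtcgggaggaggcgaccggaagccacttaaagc
The CYP1A1 core lies 57 to 53 bases before the start, and the TIPARP window holds 2 cores, at 208 to 204 and 142 to 138 bases before it. Of the members, 5 of 6 were matched in the promoter table. The windows of the AHRR starts held 1 and 2 cores, while the AHR window, the ARNT window and those of the other 2 TIPARP starts held 0. At least 1 core stood in 32.2% of 35116 promoter windows of this length, searched on both strands, and 10.2% held 2 or more.

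**Figure D1:**
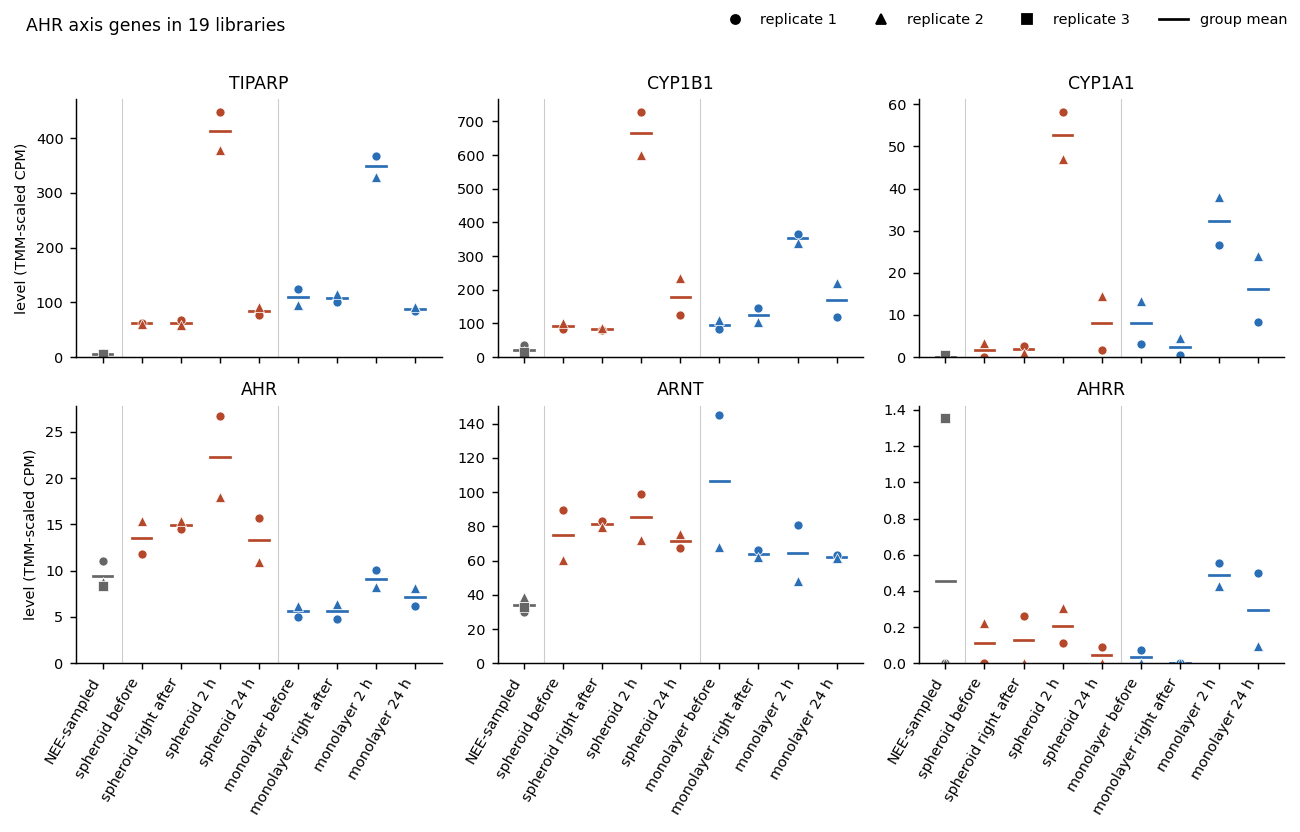
Levels of the 6 genes in TMM-scaled CPM (linear axes) in each of the 19 libraries, with symbols for the replicate number and bars for group means. TIPARP, CYP1B1 and CYP1A1 had their highest values in the 4 lysates taken 2 h after NEE, and AHR was higher in every spheroid lysate than in any monolayer lysate.

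The enzyme and feedback targets TIPARP, CYP1B1 and CYP1A1 shared 1 pattern over time in both cultures: they were highest 2 h after NEE and lower again at 24 h. For each of these 3 genes all 4 lysates at 2 h lay above the other 12 lysates. The background for that ordering was 30 of 17822 genes, or 0.168%, but since the members were picked for their 2 h values nothing is read from it.

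TIPARP (ENSG00000163659, chromosome 3, 156673235 to 156706770, GRCh38) encodes the ADP-ribosyltransferase that marks AHR and limits its activity. In spheroids its levels in replicates 1 and 2 were 62.1 and 60.8 CPM before NEE, 66.9 and 59.2 CPM right after, 448 and 378 CPM at 2 h, and 76.3 and 91.5 CPM at 24 h. In monolayers they were 124.5 and 95.0 CPM before NEE, 99.8 and 114.7 CPM right after, 368 and 329 CPM at 2 h, and 84.0 and 91.7 CPM at 24 h. The 2 h values stood far outside the other values of their culture, and the replicates of each group lay close together. The fitted log2 fold change at 2 h against before NEE was 2.75 ± 0.22 in spheroids and 1.66 ± 0.21 in monolayers (SE), 6.71-fold and 3.17-fold. The spheroid change exceeded the monolayer change by 1.09 ± 0.30 on the log2 scale (0.86 without replicate 1 of the monolayers before NEE), and the spheroids started lower and ended higher. In order of mean level, the spheroids at 2 h and the monolayers at 2 h each stood clear of the next group, the monolayers before and right after NEE overlapped, as did the pair of 24 h groups, and the spheroids before and right after NEE overlapped at the low end of the lysates.

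CYP1B1 (ENSG00000138061, chromosome 2, 38066973 to 38109902) encodes the P450 enzyme that is found in many extrahepatic tissues and hydroxylates oestradiol and polycyclic hydrocarbons. In spheroids its levels were 82.6 and 100.9 CPM before NEE, 79.9 and 87.3 CPM right after, 729 and 599 CPM at 2 h, and 125.9 and 233.5 CPM at 24 h. In monolayers they were 82.3 and 110.8 CPM before NEE, 145.8 and 104 CPM right after, 365 and 339 CPM at 2 h, and 119.5 and 221 CPM at 24 h. All 4 lysates at 24 h stood above all 4 before NEE, yet below the 2 h lysates. That ordering, seen in 0.903% of all genes tested, is a description, and CYP1B1 did not pass the tests at 24 h. The log2 fold change at 2 h was 2.85 ± 0.35 in spheroids and 1.86 ± 0.34 in monolayers (SE), and the spheroid change exceeded the monolayer change by 0.99 ± 0.46. With replicate 1 of the monolayers before NEE left out, the monolayer change was 1.67 for CYP1B1 and 1.88 for TIPARP, and the CYP1B1 difference between cultures was 1.18. The spheroids at 2 h stood clear of the monolayers at 2 h, which stood clear of the 24 h groups, and from there down to the spheroids right after NEE each group overlapped its neighbour. Of the CYP1B1 exon bases, 13% also belong to other genes, mostly to the antisense CYP1B1-AS1, which had at most 56 counts in a library against at least 217 counts for CYP1B1. RMDN2, on the opposite strand, shares 1.6% of them and had up to 333 counts in a library.

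CYP1A1 (ENSG00000140465, chromosome 15, 74719542 to 74725610) encodes the P450 enzyme most often used as a readout of AHR activity. In spheroids it had 0 and 60 counts before NEE, 50 and 20 right after, 1037 and 773 at 2 h, and 36 and 256 at 24 h. In monolayers it had 81 and 272 counts before NEE, 11 and 84 right after, 529 and 796 at 2 h, and 203 and 512 at 24 h. The replicates were far apart at every time but 2 h. As levels, the spheroids at 2 h reached 58.2 and 47.1 CPM and the monolayers at 2 h 26.5 and 37.9 CPM, while the other lysates ran from 0 to 24.0 CPM. The log2 fold change at 2 h was 4.95 ± 1.55 in spheroids, where a library at 0 among the controls makes the size depend on the fit, and 1.98 ± 1.34 in monolayers (SE). With 1 library left out the change ranged from 3.95 to 13.05 in spheroids, the highest without replicate 2 before NEE, and from 1.28 to 3.42 in monolayers, the lowest without replicate 1 before NEE and the highest without replicate 2. The difference between cultures was 2.97 ± 1.91, or 3.67 when replicate 1 of the monolayers before NEE was left out. The pooled SD between replicates was 1.13 on the log2(CPM + 1) scale, against 0.156 for TIPARP and 0.368 for CYP1B1, and replicate 2 was above replicate 1 in 6 of 8 lysate groups. CYP1A1 shares no exon bases with another gene in GENCODE 29.

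AHRR (ENSG00000063438, chromosome 5, 304176 to 438291) encodes the AHR repressor and was near the counting floor. In spheroids it had 0 and 4 counts before NEE, 5 and 0 right after, 2 and 5 at 2 h, and 2 and 0 at 24 h. In monolayers it had 2 and 0 counts before NEE, 0 and 0 right after, 11 and 9 at 2 h, and 12 and 2 at 24 h. It had at most 3 counts in 12 of 19 libraries, so no fold is given, and differences were not detectable at this depth. The readthrough gene PDCD6-AHRR had 0 counts in all 19 libraries.

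AHR (ENSG00000106546, chromosome 7, 16916359 to 17346152) encodes the receptor. In spheroids its levels were 11.8 and 15.3 CPM before NEE, 14.5 and 15.3 CPM right after, 26.7 and 17.9 CPM at 2 h, and 15.7 and 10.9 CPM at 24 h. In monolayers they were 4.98 and 6.23 CPM before NEE, 4.78 and 6.41 CPM right after, 10.1 and 8.19 CPM at 2 h, and 6.17 and 8.12 CPM at 24 h. Both 2 h lysates stood above both lysates before NEE in each culture. The log2 fold change at 2 h was 0.72 ± 0.37 in spheroids and 0.70 ± 0.37 in monolayers (SE), a difference between cultures of 0.02 ± 0.53, and with replicate 1 of the monolayers before NEE left out the monolayer change was 0.56 and the difference 0.16. The spheroids at 2 h stood clear of the other groups. The other spheroid groups overlapped each other and lay above every monolayer lysate. The monolayers at 2 h stood clear of the other monolayer groups, which overlapped at the low end. NEE-sampled RNA overlapped both the spheroids at 24 h and the monolayers at 2 h. Of its exon bases, 29.4% lie in a same-strand gene model, AC019117.2, that had 0 counts in all 19 libraries. If reads shared by both models were dropped in counting, the AHR level is understated in every library, and how the counts treat such reads is not given in the sources used here.

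ARNT (ENSG00000143437, chromosome 1, 150809705 to 150876768) encodes the partner that AHR shares with the hypoxia-inducible factors. In spheroids its levels ran from 60.3 to 99.1 CPM, with a median of 77.8 CPM over 8 lysates. In monolayers they ran from 48.2 to 144.8 CPM, with a median of 64.6 CPM over 8 lysates. The highest value belonged to replicate 1 of the monolayers before NEE, the library with the NK and T cell markers, and its part in the level was not tested. The log2 fold change at 2 h against before NEE was 0.19 ± 0.34 in spheroids and −0.73 ± 0.35 in monolayers (SE), and −0.07 in monolayers without that library. The difference between cultures was 0.92, or 0.26 without it. Every lysate group overlapped its neighbours in the order of ARNT levels, and NEE-sampled RNA stood clear below them. Replicate 2 was above replicate 1 in 1 of 8 lysate groups.

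Both lysates at 2 h stood above both before NEE for 4 of the 6 members in spheroids, AHR, TIPARP, CYP1A1 and CYP1B1, beside 14.5% of all genes tested. In monolayers the same held for 5 of the 6, with AHRR added, beside 12.7% of all genes. AHRR was near the counting floor there, with 11 and 9 counts at 2 h against 2 and 0 before NEE. The members were picked with the 2 h values known, so nothing is read from these counts. Per kilobase of exon, which allows genes to be compared, the mean level at 2 h in spheroids was 110.4 CPM per kilobase for CYP1B1, 81.9 for TIPARP, 15.3 for CYP1A1, 13.1 for ARNT and 2.76 for AHR. Before NEE in spheroids the mean levels were 15.25 CPM per kilobase for CYP1B1, 12.2 for TIPARP, 11.5 for ARNT, 1.68 for AHR and 0.492 for CYP1A1. The targets CYP1B1 and TIPARP were thus near ARNT before NEE and several times above it at 2 h. The receptor transcript was low throughout in these counts, which understate it if reads shared with AC019117.2 were dropped.

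**Figure D2:**
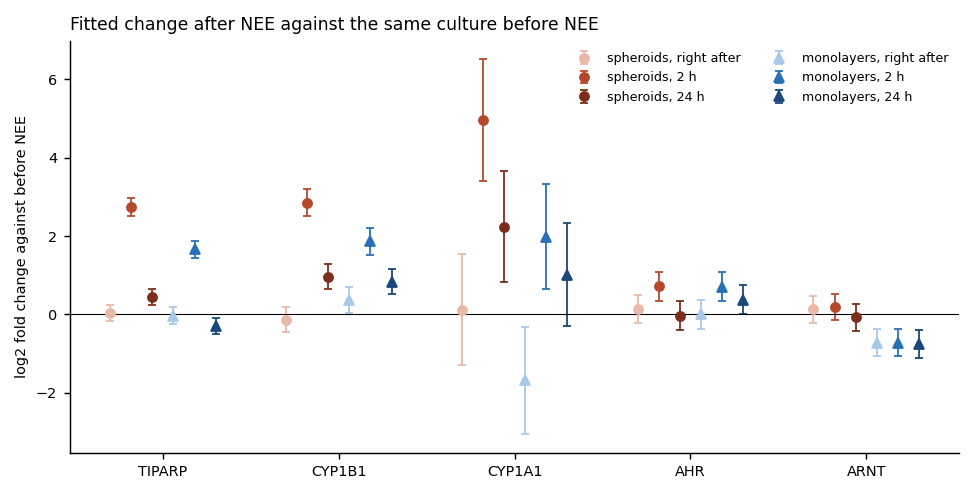
Fitted log2 fold change of 5 members against the same culture before NEE, with bars of 1 SE, for spheroids (circles) and monolayers (triangles). TIPARP stood at 2.75 in spheroids and 1.66 in monolayers at 2 h, and its values right after NEE and at 24 h lay between −0.30 and 0.45.

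Right after NEE and at 24 h, which were not the times the genes were picked on, none of the 6 members passed the test (edgeR quasi-likelihood, Benjamini-Hochberg adjusted p = 1 for each), in either culture. The share of all 17822 genes called was 0% in each of these 4 comparisons, with 359 to 788 genes at an unadjusted p under 0.05 and 0 to 50 genes called by DESeq2, which called 0 members as well. The closest member was CYP1B1 at 24 h, with a log2 fold change of 0.97 ± 0.33 in spheroids (SE, unadjusted p = 0.0112) and 0.84 ± 0.33 in monolayers (unadjusted p = 0.0235), both at an edgeR adjusted p of 1. TIPARP at 24 h stood at 0.45 ± 0.21 in spheroids and −0.30 ± 0.21 in monolayers. The difference of 0.75 ± 0.30 between these changes had an unadjusted p of 0.0251 and an edgeR adjusted p of 1. ARNT at 24 h stood at −0.07 ± 0.34 in spheroids and −0.75 ± 0.35 in monolayers (unadjusted p = 0.0473), and at −0.09 in monolayers without replicate 1 of the monolayers before NEE. Without that library the monolayer values at 24 h were 0.23 for AHR, 0.31 for CYP1A1, 0.65 for CYP1B1 and −0.08 for TIPARP, with a culture difference of 0.54 for TIPARP.

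Right after NEE TIPARP differed by 0.04 ± 0.21 in spheroids and −0.03 ± 0.21 in monolayers (log2, SE). CYP1B1 stood at −0.13 ± 0.33 in spheroids and 0.38 ± 0.33 in monolayers, and CYP1A1 at 0.12 ± 1.42 in spheroids and −1.68 ± 1.37 in monolayers. With replicate 1 of the monolayers before NEE left out the monolayer values were 0.18 for both TIPARP and CYP1B1, −2.39 for CYP1A1, −0.15 for AHR and −0.08 for ARNT, which stood at −0.73 with all libraries. The interaction of culture and time was called for 0 of 6 members and 0% of genes both right after NEE and at 24 h (edgeR), with 516 and 628 genes at an unadjusted p under 0.05 and 1 and 13 called by DESeq2. These comparisons share the lysates before NEE.

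AHR was higher in spheroids than in monolayers at each time. TIPARP levels were lower in spheroids before and right after NEE, overlapped at 24 h and were higher in spheroids at 2 h. AHR levels in the 8 spheroid lysates ran from 10.9 to 26.7 CPM, with a median of 15.3 CPM, and those in the 8 monolayer lysates from 4.78 to 10.1 CPM, with a median of 6.32 CPM, so the cultures did not overlap. That held for AHR alone among the members and for 2.97% of all genes. Over the 4 times the AHR log2 difference was 1.22 ± 0.19 (SE), or 2.33-fold higher in spheroids, with an edgeR adjusted p of 0.000562, in a comparison in which 19.9% of 17822 genes were called. TIPARP stood at −0.35 ± 0.11 by the same test (edgeR adjusted p = 0.0306), so 2 of 6 members were called. This test takes in the 2 h lysates on which the genes were picked. With the 2 h lysates left out, an alternative chosen after seeing the data in which 14.2% of genes were called, AHR stood at 1.20 ± 0.22 (adjusted p = 0.00274) and TIPARP at −0.55 ± 0.12 (adjusted p = 0.00825) by edgeR. Both calls were kept there without any 1 of the 12 lysates (edgeR adjusted p = 0.00335 to 0.0137 for AHR and 0.00272 to 0.0423 for TIPARP). Over the 4 times ARNT, CYP1A1 and CYP1B1 did not pass, at 0.12 ± 0.17, −0.75 ± 0.67 and 0.09 ± 0.16. The AHR call over the 4 times was kept without any single lysate (edgeR adjusted p = 0.000703 to 0.00256). The TIPARP call over the 4 times was lost without any 1 of 14 of the 16 lysates (adjusted p = 0.0551 to 0.107) and kept without replicate 2 of the monolayers before NEE (0.0115) or replicate 2 of the spheroids at 24 h (0.037).

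Before NEE alone, 0 of 6 members passed between spheroids and monolayers (edgeR), beside 1.3% of all genes, 0.701% as higher and 0.595% as lower. AHR stood at 1.28 ± 0.37 (adjusted p = 0.101) and TIPARP at −0.83 ± 0.21 (adjusted p = 0.067), both with unadjusted p under 0.05, and DESeq2 called both (0.00753 and 0.0081). With the replicate number as a block, edgeR called TIPARP (0.0448). Leaving out replicate 1 of these monolayers gave 1.14 for AHR (adjusted p = 0.445) and −0.61 for TIPARP (adjusted p = 0.369). The 7 monocyte and macrophage markers summed to 31.5 to 89.8 CPM in spheroids and 5.77 to 23.5 CPM in the monolayers other than replicate 1 before NEE. CD14 carried that difference and split by culture as AHR did, at 28.8 to 88.0 CPM in spheroids and 0.744 to 22.4 CPM in monolayers. Replicate 1 of the monolayers before NEE had 45.9 CPM for the list, of which FCGR3A held 41.9 CPM. CD68 had 0 counts in 13 of 19 libraries, LYZ in 14, TYROBP in 12 and AIF1 in all 19, and none of these 4 was above 1.13 CPM in a spheroid lysate. The part of these markers in the AHR level was not tested. In bulk lysates fewer cells that express a gene and less RNA per cell cannot be told apart.

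**Figure D3:**
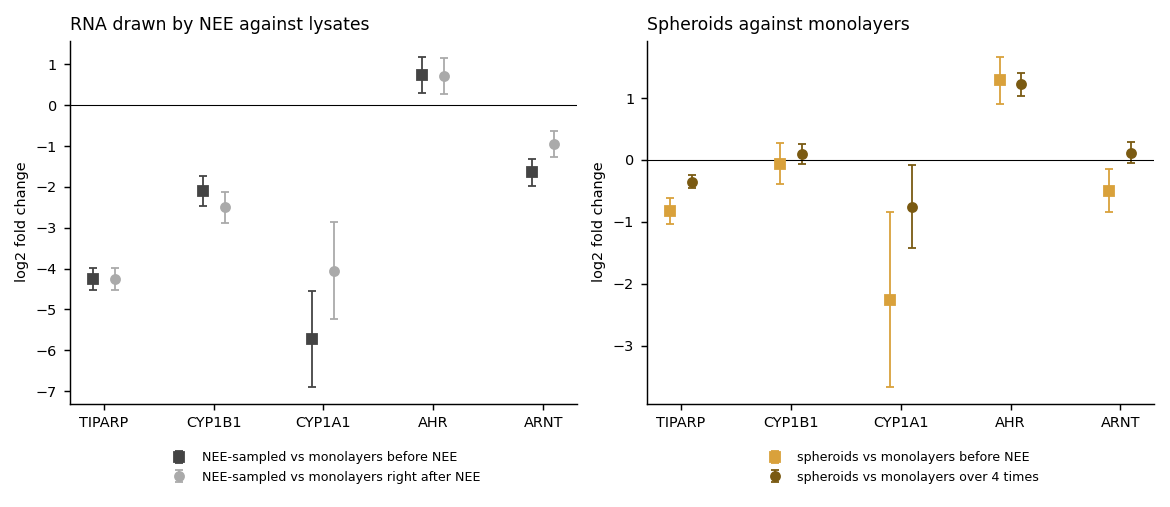
Fitted log2 fold changes with bars of 1 SE for NEE-sampled RNA against monolayer lysates (left) and for spheroids against monolayers (right). TIPARP, CYP1B1, CYP1A1 and ARNT lie below 0 in NEE-sampled RNA, and AHR lies above 0 in spheroids in both comparisons.

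TIPARP, CYP1B1, CYP1A1 and ARNT were lower in RNA drawn by NEE than in monolayer lysates, while AHR did not pass the test. TIPARP had 79, 53 and 88 counts in the 3 NEE-sampled libraries, or 7.03, 4.29 and 5.97 CPM, against 124.5 and 95.0 CPM in monolayers before NEE and 99.8 and 114.7 CPM right after. The log2 difference was −4.26 ± 0.26 from monolayers before NEE (SE, edgeR adjusted p = 5.45e-06), a level 19.1-fold lower, and −4.25 ± 0.26 from monolayers right after NEE (adjusted p = 6.08e-06). CYP1B1 had 34.9, 17.6 and 15.3 CPM in NEE-sampled RNA, against 82.3 and 110.8 CPM in monolayers before NEE and 145.8 and 104 CPM right after. Its log2 differences were −2.11 ± 0.37 (edgeR adjusted p = 0.00106) and −2.50 ± 0.37 (adjusted p = 0.000424). For both genes every NEE-sampled library lay below every lysate, as in 16% of all genes tested.

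CYP1A1 had 0, 0 and 6 counts in NEE-sampled RNA, against 81 and 272 in monolayers before NEE and 11 and 84 right after. The log2 difference was −5.72 ± 1.18 from monolayers before NEE (SE, edgeR adjusted p = 0.00266) and −4.05 ± 1.19 from monolayers right after (adjusted p = 0.0199). With so few counts the size depends on single libraries: from monolayers before NEE it was −10.31 without NEE replicate 3 and −4.26 without lysate replicate 2. ARNT had 30.1, 39.0 and 32.6 CPM in NEE-sampled RNA, against 144.8 and 67.8 CPM in monolayers before NEE and 66.2 and 61.9 CPM right after. Its log2 differences were −1.65 ± 0.32 (edgeR adjusted p = 0.00198) and −0.95 ± 0.32 (adjusted p = 0.0378). AHR had 11.0, 8.75 and 8.34 CPM in NEE-sampled RNA, above the 4.98 and 6.23 CPM of monolayers before NEE, and its differences of 0.73 ± 0.44 and 0.71 ± 0.44 did not pass (edgeR adjusted p = 0.207 and 0.231). Leaving replicate 1 of that lysate group out gave 0.54 for the first (edgeR adjusted p = 0.55). AHRR had 0, 0 and 20 counts in NEE-sampled RNA, so that a single library held all of them.

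Thus 4 of 6 members were lower in NEE-sampled RNA against each of the lysate groups. Of all 17067 genes tested, 38% were called against monolayers before NEE, 22.5% as lower, and 34.8% against monolayers right after, 20.6% as lower. The median gene stood at −0.21 on the log2 scale in both comparisons. Both use the same NEE-sampled libraries, which are technical replicates, so their spread does not include that between cultures. With these libraries summed into 1, the 4 calls against monolayers before NEE were kept (edgeR adjusted p = 0.0463 for ARNT, 0.0275 for CYP1A1, 0.0105 for CYP1B1 and 0.000782 for TIPARP). Against monolayers right after NEE 2 were kept and those of ARNT (0.254) and CYP1A1 (0.0929) were lost. The 4 calls against monolayers before NEE were kept with replicate 1 of that group left out, with ARNT at −1.05 (edgeR adjusted p = 0.0323), CYP1A1 at −6.44, CYP1B1 at −2.34 and TIPARP at −4.09. Against monolayers right after NEE the ARNT call was lost without NEE replicate 1 (0.0975), NEE replicate 3 (0.0888), lysate replicate 1 (0.149) or lysate replicate 2 (0.102), and with the block (0.0797). The CYP1A1 call was lost there without NEE replicate 1 (edgeR adjusted p = 0.0593), NEE replicate 2 (0.062) or lysate replicate 2 (0.319), where it stood at −1.95.

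**Figure D4:**
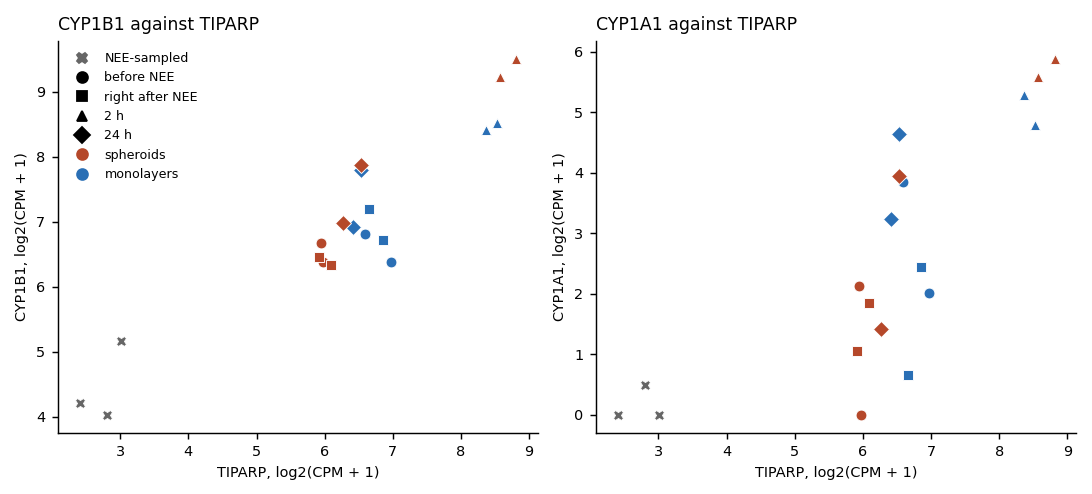
CYP1B1 and CYP1A1 against TIPARP, as log2(CPM + 1), in the 19 libraries. The 4 lysates at 2 h lie at the upper right and the NEE-sampled libraries at the lower left, with the other lysates between them for TIPARP and CYP1B1. For CYP1A1, replicate 1 of the spheroids before NEE, at 0 CPM, lies as low as the NEE-sampled libraries, at 0 to 0.407 CPM.

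As a description, TIPARP, CYP1B1 and CYP1A1 were high and low together across the 16 lysates, which include the 2 h lysates they were picked on. On the log2(CPM + 1) scale Pearson's r was 0.887 for TIPARP and CYP1B1, 0.854 for CYP1A1 and CYP1B1, and 0.796 for TIPARP and CYP1A1. Within the 8 lysates of each replicate number r for TIPARP and CYP1B1 was 0.925 and 0.858. Picking genes for high 2 h values raises r over all 16 lysates, and among the 12 not taken at 2 h r was 0.304, 0.634 and 0.398 for the same pairs. AHR and TIPARP had r of 0.21 over 16 lysates and −0.85 over those 12, in which the cultures differ in both genes. These values describe libraries that share cultures, times and scaling.

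Among 9642 protein-coding genes with a mean of at least 5 CPM, the 5 most like TIPARP across the 16 lysates were AMOTL2 (r = 0.921), which encodes an angiomotin family scaffold, NR4A1 (0.915), an orphan nuclear receptor, FOSB (0.907), an AP-1 subunit, TMEM156 (0.901) and CCN1 (0.892), a matricellular protein. AMOTL2 ran from 109 to 270 CPM in spheroids at 2 h and 131 to 284 CPM in monolayers at 2 h, against 18.5 to 33.1 and 46.3 to 54.4 CPM before NEE. CYP1B1 was most like TIPARP (0.887), then MAFG (0.858), a small MAF factor, CYP1A1 (0.854), UGCG (0.825), glucosylceramide synthase, and REL (0.817), an NF-κB subunit. The ranking includes the 2 h lysates on which the members were picked, so nothing is read from TIPARP and CYP1A1 standing in this list. The genes most like AHR were WIPI1 (0.915), an autophagy protein, ABTB1 (0.909), CA12 (0.908), a carbonic anhydrase, AIFM2 (0.903), a suppressor of ferroptosis, and CDS2 (0.899). WIPI1 had group means of 34.4 to 59.6 CPM in spheroids and 13.3 to 17.6 CPM in monolayers, the split by culture seen for AHR. ARNT was most like SEC31A (0.842), AMIGO2 (0.835), USO1 (0.823), LPXN (0.812) and ZBTB17 (0.799). As for ARNT, the highest lysate of SEC31A, AMIGO2, USO1 and LPXN was a monolayer lysate before NEE, at 426, 471, 160 and 32.8 CPM. That of ZBTB17 was a spheroid lysate at 2 h. How far the ARNT list rests on the monolayers before NEE was not tested.

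The wider pathway was read from 7 lists with 76 genes, chosen with earlier results of these data known. Of these, 68 could be tested in each fit. Right after NEE and at 24 h 0 of 68 passed in either culture (edgeR), where 0% of all genes did. Between spheroids and monolayers over the 4 times 11 were higher and 7 lower, beside 10% and 9.84% of all genes. Without replicate 1 of the monolayers before NEE, 8 were higher and 7 lower, and of the genes named CLOCK (edgeR adjusted p = 0.0866), NCOA7 (0.142) and KYNU (0.132) were no longer called.

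The chaperone complex that holds AHR in the cytosol was lower in spheroids for 3 of 6 genes and higher for 1, with a list median of −0.44 against −0.02 for all genes. HSP90AA1, the inducible HSP90 gene, ran from 311 to 494 CPM in spheroids and 671 to 1272 CPM in monolayers, a log2 difference of −1.35 ± 0.12 (SE, edgeR adjusted p = 1.15e-05). HSP90AB1, its constitutive copy, stood at −0.54 ± 0.09, and PTGES3, the co-chaperone p23, at −0.59 ± 0.11. SRC, the kinase in the receptor complex, was higher at 1.20 ± 0.20 (edgeR adjusted p = 0.00122). The HSP90 genes and PTGES3 have many near-identical pseudogenes, so their counts are uncertain.

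Of 14 other AHR targets, 12 were tested between cultures, 5 were higher in spheroids and 2 lower, with a median of 0.56 against −0.02. Without replicate 1 of the monolayers before NEE that median was 0.41 against 0.02. EREG, an EGF family ligand, was lower at −2.01 ± 0.22 (SE, edgeR adjusted p = 6.15e-05), and ALDH1A3, a retinaldehyde dehydrogenase, at −1.83 ± 0.26. NFE2L2, which encodes the stress factor NRF2, was higher at 0.72 ± 0.14 (edgeR adjusted p = 0.00277). GSTA1, a glutathione transferase, was called higher but low, at 0.853 to 2.31 CPM in spheroids and 0 to 0.49 CPM in monolayers, and its near-identical copy GSTA2 shares the uncertainty of its reads. The remaining lists had few calls. Of 15 coregulators, ANKRA2, HDAC5 and NCOA7 were higher, at 0.90 ± 0.13, 0.98 ± 0.26 and 0.84 ± 0.27, although the list median was −0.21. Of 10 other bHLH-PAS factors tested CLOCK, a circadian factor, was lower at −0.69 ± 0.21, and the median was 0.02. Of 7 genes tested that turn tryptophan into AHR ligands, KYNU, kynureninase, was higher at 0.67 ± 0.22 and AADAT, an aminotransferase, lower at −1.45 ± 0.25, with a median of −0.22. Of 12 ADP-ribosylation genes tested PARP3 was higher at 0.76 ± 0.16, with a median of 0.29, and of the 6 genes of AHR turnover 0 were called, with a median of −0.09.

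Against monolayers before NEE, 11 of the 68 pathway genes were higher in NEE-sampled RNA and 21 lower, beside 15.6% and 22.5% of all genes. Against monolayers right after NEE they numbered 10 and 21, beside 14.2% and 20.6%. When replicate 1 of the monolayers before NEE was left out, 5 were higher and 14 lower than in the other library of that group, beside 7.78% and 13.2% of all genes. The values that follow are against monolayers before NEE, with those without that library where they moved by over 1.5 times or lost the call. The coregulators were lower for 8 of 15 and higher for 0, with a median of −1.05 against −0.21 for all genes, and without that library for 3 of 15, with a median of −0.92 against −0.02. NCOA3, a p160 coactivator, stood at −2.53 ± 0.39 (SE, edgeR adjusted p = 0.000456), or −1.61 without it (edgeR adjusted p = 0.00274), and MED1, a Mediator subunit, at −1.79 ± 0.30. Of the other targets 4 were higher and 4 lower, with a median of −0.39, against 2 and 3 without that library. EREG stood at −3.59 ± 0.39, or −2.94 without it. LPCAT2, a lysophospholipid acyltransferase, stood at −3.79 ± 0.63, or −2.48 without that library. NQO1, the quinone reductase, stood at 0.98 ± 0.27, or 0.54 without it (edgeR adjusted p = 0.0786, not called). In the chaperone list, with a median of 0.55, HSP90AB1 was lower at −1.64 ± 0.17. Among the bHLH-PAS factors HIF1A, the hypoxia factor that also pairs with ARNT, was lower at −2.31 ± 0.18 (edgeR adjusted p = 1.73e-05) and NPAS2 stood at 1.29 ± 0.38, with a median of 0.42 over 9 genes tested. The NPAS2 call was lost without that library (edgeR adjusted p = 0.0946). The turnover list split 3 and 3, with RBX1, a cullin ligase subunit, higher at 1.77 ± 0.31 and DDB1 and CUL4B, of the ligase that binds AHR, lower at −1.57 ± 0.23 and −2.01 ± 0.37, the CUL4B value being −1.18 without that library (edgeR adjusted p = 0.0201). TDO2, tryptophan dioxygenase, was lower at −3.47 ± 0.64, or −2.42 without that library. Of the ADP-ribosylation genes PARP4 was lower at −3.01 ± 0.32. That list had 2 higher, 3 lower and a median of 0.68, with fewer calls when the library was left out.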

How the data were processed

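RNA-seq libraries made by Smart-Seq2 were analysed from raw counts per gene as deposited. Per the submitters' processing notes the authors used FastQC, Trimmomatic, HISAT2 and featureCounts on GRCh38. Their versions, the annotation, the use of strand and the treatment of reads shared between genes were not given in the sources used here. Antisense and overlapping genes are therefore uncertain. Of 62700 gene IDs, 58207 were placed with GENCODE 29.

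Counts were fitted with edgeR 4.0.16 in R 4.3.3 (TMM scaling, filterByExpr, robust quasi-likelihood F test, Benjamini-Hochberg adjustment over all genes, threshold 0.05). One fit held the 16 lysates in 8 groups (17822 genes, 8 residual degrees of freedom, biological coefficient of variation 0.518) and the other the 3 NEE-sampled and 8 monolayer libraries (17067 genes, 6 degrees of freedom, 0.519). The procedure was checked on simulated data. Lysate replicates are labelled as biological, and whether they came from separate cultures beyond that is not stated. Levels are CPM from 1 TMM scaling of the 19 libraries, with a pseudocount of 1 for log2 levels. Python 3.11.15 with pandas 2.3.3, numpy 2.4.6, scipy 1.17.1 and matplotlib 3.10.9 made summaries and figures.

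The members and lists were chosen with earlier results of these data known. All 6 members were named, then pathway genes called in a comparison, up to 4 a list by smallest p, and the 5 genes most like each of 4 members. Some items are left out and not reported here. Replicate numbers are those of the batch tag in the labels; they give the block. Whether a number marks a shared batch is not given in the labels, although the epithelial marker sums of the lysates split by it. Fits without the block are the main ones, and the block is an alternative. Deviations of same-numbered lysates from their group means had correlations of −0.324 to 0.563 over 28 pairs (8004 genes), with a median of 0.211 and 19 above 0.1. None of 171 pairs of libraries was a duplicate (mean chi-square per gene 17.2 to 950). NEE-sampled libraries carry sequencing names from a separate range, so run and arm cannot be told apart. Alternatives were DESeq2 1.42.0, RLE and upper-quartile scaling, no filter, a filter of 5 CPM in 2 libraries, the block, all 19 libraries in the fit, summed NEE-sampled libraries, a pseudocount of 0.1 or Spearman's rho for likeness, leaving out each library, and, added after seeing the data, cultures compared without the 2 h lysates and pathway lists without replicate 1 of the monolayers before NEE.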

Additional observations from a re-analysis of the deposited data

How the results depend on the processing

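Against monolayers before NEE the 4 calls in NEE-sampled RNA were made under every alternative and leave-one-out fit run, and AHR was called between cultures over the 4 times under every one. For spheroids against monolayers before NEE, with 0 members called, 2 were called with DESeq2 and 1 each with no filter (CYP1A1, edgeR adjusted p = 0.00103), the stricter filter (TIPARP, 0.0419) and the replicate block (TIPARP, 0.0448), and 0 to 1 when 1 library was left out. Over the 4 times 2 members were called, 1 to 2 with 1 library left out, and with no filter TIPARP was lost (edgeR adjusted p = 0.162) and CYP1A1 called (0.023). In spheroids at 24 h no filter gave 1 call (CYP1A1, 0.0284). Against monolayers right after NEE 4 members were called, 2 with the NEE-sampled libraries summed into 1 and 2 to 3 with 1 library left out. There ARNT was also lost with RLE (0.0559), upper-quartile scaling (0.0826) and the stricter filter (0.0588), and CYP1A1 with all 19 libraries in the fit (0.0611). The replicate block changed no other call of a member than TIPARP before NEE and ARNT against monolayers right after NEE.

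Signs turned for these uncalled values. AHR in monolayers right after NEE was 0.005 (log2), −0.002 with all 19 libraries and −0.011 with upper-quartile scaling. CYP1B1 between cultures was −0.19 without the 2 h lysates. With 1 library left out the ranges were −0.21 to 0.22 for AHR and −0.21 to 0.18 for TIPARP in monolayers right after NEE, −0.06 to 0.32 for AHR, −0.15 to 0.42 for ARNT, −0.082 to 0.112 for TIPARP and −0.90 to 8.20 for CYP1A1 in spheroids right after NEE, and −0.29 to 0.19 for AHR, −0.32 to 0.25 for ARNT and −0.044 to 10.36 for CYP1A1 in spheroids at 24 h. Between cultures they were −0.94 to 0.16 for ARNT and −0.25 to 0.17 for CYP1B1 before NEE and −0.038 to 0.226 for CYP1B1 over the 4 times. Descriptive 2 h changes of TIPARP ranged from 2.62 to 2.85 in spheroids and 1.48 to 1.88 in monolayers. With Spearman's rho 1, 2, 2 and 1 of the 5 genes most like TIPARP, CYP1B1, AHR and ARNT stayed in the list. The cause of these changes was not tested. Depth limits AHRR throughout and CYP1A1 in NEE-sampled RNA. Where a group was left with 1 library, its spread was taken from the other groups.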

Other observations

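At 2 h, the time the members were picked on, the other AHR targets stood as follows against their level before NEE: 10 of 12 fitted values were positive in spheroids and 9 of 12 in monolayers, with medians of 0.20 and 0.58 on the log2 scale against 0.00 and −0.03 for all genes. Without replicate 1 of the monolayers before NEE, 7 of 12 were positive in monolayers, with a median of 0.06 against 0.01. NFE2L2 and EREG are named here after their values were seen. NFE2L2, the NRF2 gene, had 338 and 287 CPM in spheroids at 2 h against 91.6 and 141 CPM before NEE, and 215 and 170 CPM in monolayers at 2 h against 63.0 and 84.5 CPM before NEE. EREG had 120.1 and 59.1 CPM in spheroids at 2 h against 27.0 and 17.1 CPM before NEE, and 227 and 206 CPM in monolayers at 2 h against 167 and 74.6 CPM before NEE. For both genes, and for SLC7A5, both 2 h lysates stood above both before NEE in each culture. That ordering was seen in 14.5% of all genes tested in spheroids and 12.7% in monolayers. These are descriptions without a test. CYP1A2, the P450 gene beside CYP1A1, averaged 0 CPM in every group but the monolayers at 2 h, where it averaged 0.0952 CPM.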
